A study of Caenorhabditis elegans with 2 samples.

Results

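Among the 1784 autosomal peaks that the authors kept after an irreproducible discovery rate (IDR) step for PAX-3 in Caenorhabditis elegans larvae, 408 lay outside every promoter window and outside every protein-coding gene. A peak was placed by its summit, the base of highest signal. It counted as intergenic when the summit lay in no protein-coding gene body and in no promoter window, which covered the 1000 bp before and the 200 bp after each annotated start of a protein-coding gene in the Ensembl annotation of WBcel235, the assembly also called ce11. The other 1376 autosomal IDR peaks were 346 in promoters shared by genes, 601 in promoters of 1 gene and 429 inside genes. The IDR list held 355 more peaks on X, which were left out. As a second reference, 4837 weaker summits of the authors' pooled relaxed list met the same position rule and lay over 500 bp from any IDR summit. Finally, the rule itself left 19.4 Mb of autosomal bases in which such a summit could fall, called eligible bases below.

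The data came from chromatin immunoprecipitation followed by sequencing with an antibody against green fluorescent protein (GFP). Chromatin was taken from whole first-stage (L1) larvae of the strain OP190, genotype unc-119(ed3) III; wgIs190, in which the transgene wgIs190 makes PAX-3 with GFP and FLAG joined to its C-terminal end. There was 1 group of 2 biological replicates: larvae of both sexes pooled, starved after bleaching, age 6 hour, with chromatin sheared by Bioruptor sonication to 200 to 800 bp. Whole larvae mix many cell types, the tagged protein was made from a transgene in an unc-119 mutant, and what drives that transgene is not given in the sources used here, so a peak cannot be assigned to a cell type. No summit among the 408 lay within 50000 bp of pax-3 or of unc-119. The nearest lay 235328 bp from pax-3 and 83000 bp from unc-119.

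Paired box proteins are transcription factors that hold DNA with a paired domain, in many members together with a homeodomain, and act in the patterning of embryos and the fate of cells. In C. elegans, PAX-3 is known from the ventral epidermis. The worm genome is compact: most described control elements lie close upstream of genes, and the sequence between genes also carries noncoding RNA genes, pseudogenes and repeats, so a summit far from a protein-coding start can still lie at the start of another kind of gene.

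The intergenic peak of highest signal, ranked 1 of the 408, lay on chrV:14055070-14055405 between F58D12.1, whose end was 570 bp away, and F58D12.3, whose start was 2607 bp away. Its pooled signal, in the authors' units, was 2034, with 1012 in replicate 1 and 1032 in replicate 2. Its sequence and those of 3 more of the 12 highest are shown because their windows differ in the short motifs described further down. Each is the forward strand of the 101 bases centred on the summit, 5′ to 3′, from the RefSeq copy of WBcel235. Capitals mark every match, on either strand, to the GA repeat GAGAGA, the element CTGCGTC, the E-box CACGTG, the CG element CGCGC or the paired core GTCACG.
Rank 1, chrV:14055183-14055283: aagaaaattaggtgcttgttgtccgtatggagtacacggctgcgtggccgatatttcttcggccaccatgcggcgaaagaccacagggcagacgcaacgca
Rank 3, chrIV:2219577-2219677: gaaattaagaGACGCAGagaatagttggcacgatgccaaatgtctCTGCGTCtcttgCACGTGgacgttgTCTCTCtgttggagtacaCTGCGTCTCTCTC
Rank 10, chrV:13658736-13658836: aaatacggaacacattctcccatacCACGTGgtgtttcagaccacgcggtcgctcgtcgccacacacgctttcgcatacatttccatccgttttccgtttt
Rank 11, chrII:2974023-2974123: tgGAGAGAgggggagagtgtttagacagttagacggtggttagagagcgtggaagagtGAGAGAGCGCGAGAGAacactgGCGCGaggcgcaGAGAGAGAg
The window of rank 3, between T04C4.3 and fnip-2, a gene of the folliculin-interacting protein family, carried matches to CTGCGTC, the E-box and the GA repeat, and that of rank 11, between srw-60 and nhr-88, a nuclear hormone receptor gene, carried matches to the GA repeat and the CG element. The window of rank 1 carried none of these motifs.

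GTCACG is the core of sites that paired domains bind. Among the intergenic peaks next to genes of the lists given later, the 2 of highest signal with a GTCACG match in the 200 bases around the summit were rank 50 and rank 65. They are shown so that the matches can be seen in place, with capitals for GTCACG and for CACGTG, which overlaps it in the form GTCACGTG.
Rank 50, chrII:10558938-10559137: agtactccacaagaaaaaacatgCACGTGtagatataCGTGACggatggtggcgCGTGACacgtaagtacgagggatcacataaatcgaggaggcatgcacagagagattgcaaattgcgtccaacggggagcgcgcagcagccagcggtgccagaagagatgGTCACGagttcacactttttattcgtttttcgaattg
Rank 65, chrII:7337466-7337665: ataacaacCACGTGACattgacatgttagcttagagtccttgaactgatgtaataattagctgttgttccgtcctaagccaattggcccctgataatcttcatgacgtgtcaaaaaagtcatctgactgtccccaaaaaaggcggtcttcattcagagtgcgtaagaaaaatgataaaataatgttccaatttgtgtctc
Rank 50 lay 998 bp beyond the end of cdc-48.1, which encodes an ATPase that unfolds ubiquitin-tagged proteins. Its pooled signal was 281, with 152 in replicate 1 and 134 in replicate 2. Rank 65 lay 1663 bp upstream of the start of nhr-21 and 6242 bp upstream of that of npax-1, itself a paired-domain gene. Its pooled signal was 251, with 108 in replicate 1 and 142 in replicate 2.

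For 4 intergenic peaks near short noncoding genes the same 101-base windows are shown with the bases of the annotated noncoding gene in capitals.
Rank 8, sls-2.2, chrII:5543521-5543621: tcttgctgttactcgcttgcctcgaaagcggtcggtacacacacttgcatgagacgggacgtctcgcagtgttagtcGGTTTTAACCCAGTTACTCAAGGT
Rank 52, mir-52, chrIV:14033957-14034057: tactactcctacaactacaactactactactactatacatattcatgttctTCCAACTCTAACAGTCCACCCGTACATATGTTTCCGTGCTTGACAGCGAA
Rank 62, W03C9.9, chrII:11960835-11960935: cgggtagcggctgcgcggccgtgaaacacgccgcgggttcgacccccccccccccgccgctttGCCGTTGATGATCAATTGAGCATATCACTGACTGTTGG
Rank 195, F41A4.t1, chrIV:683042-683142: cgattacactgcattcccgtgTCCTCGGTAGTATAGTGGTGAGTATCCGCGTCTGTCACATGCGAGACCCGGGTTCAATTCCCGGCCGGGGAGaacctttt
The first gene, sls-2.2, encodes a spliced leader RNA of the SL2 kind, which is joined to the front of mRNAs from downstream genes of operons, and the summit stood 27 bp before its first base. The others were a microRNA gene, whose annotated hairpin began 1 bp after the summit, a snoRNA gene that began 13 bp after it, and a tRNA-Asp gene that held the summit. The mature microRNA lies in the second window and carries the seed (bases 2 to 8, in capitals) of the mir-51 family.
mir-52, chrIV:14034024-14034047: cACCCGUAcauauguuuccgugcu

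The first question was how strong these peaks were and whether each replicate showed them. The pooled signal of the 408 intergenic peaks had a median of 155 (quartiles 132 and 204, range 117 to 2034), against 191 (quartiles 143 and 310) for the other autosomal IDR peaks. The median was 241 for shared promoters, 184 for promoters of 1 gene and 168 inside genes. The intergenic peaks thus had the lowest median of these 4 classes. Of the 100 IDR peaks of highest signal 9 were intergenic and autosomal, which is 2.21% of the 408, against 80 (5.81%) of the other autosomal peaks. Among those, the share was 9.25% in shared promoters, 6.49% in promoters of 1 gene and 2.10% inside genes, the last close to that of the intergenic peaks.

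A peak counted as matched in both replicates when a summit lay within 100 bp among the highest peaks of replicate 1 and of replicate 2, taking as many from each as the IDR list holds. This held for 229 of the 408 intergenic peaks (56.1%, 95% Wilson interval 51.3 to 60.9), against 997 of the other 1376 (72.5%, 70.04 to 74.8) and 68.0% of all IDR peaks. A further 86 were matched in replicate 1 only, 79 in replicate 2 only and 14 in neither. Among the other autosomal peaks the share matched in both was 66.7% inside genes, 69.6% in promoters of 1 gene and 84.7% in shared promoters. Replicate match moved with signal. A match needs a place among each replicate's highest peaks, and pooled signal holds reads of both replicates. Match and pooled signal are therefore not separate measures, and a fall toward the list's lower end is partly built in. Matched in both were 49 of the 50 intergenic peaks of highest signal and 15 of the 136 of lowest signal, which had a signal of at most 140. Within 4 equal signal classes of the whole IDR list, the shares of intergenic and other autosomal peaks stood closer together than over all peaks. In the highest class 96.2% of 53 intergenic peaks were matched, against 98.8% of 410 others. In the next the shares were 90.8% of 98 and 96.3% of 347. Below that they were 61.9% of 118 and 66.4% of 318, and in the lowest 11.5% of 139 and 15.6% of 301. The intergenic share was the lower in each class, with intervals that overlapped in all 4.

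**Figure D1:**
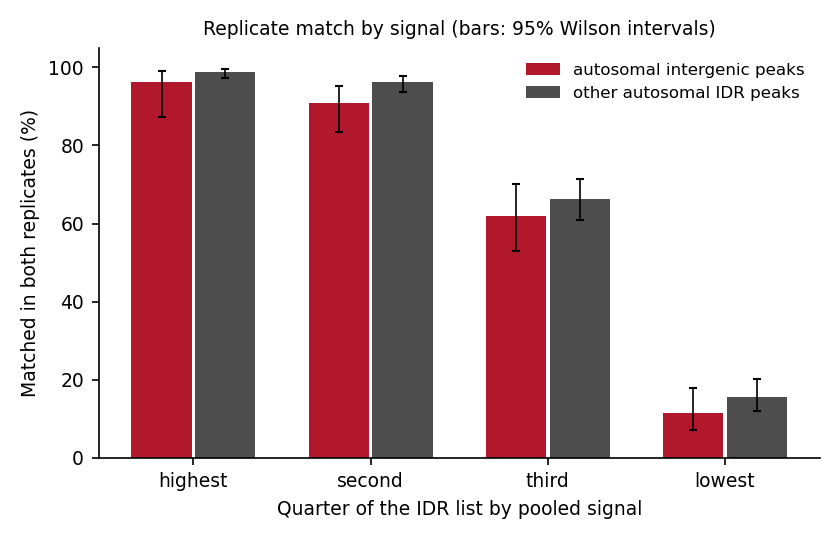
Share of autosomal intergenic IDR peaks and of the other autosomal IDR peaks matched in both replicates (y axis, %) in each of 4 equal classes of the IDR list by pooled signal (x axis), with 95% Wilson intervals that cover counting error only. Both shares fall from over 96% in the highest class to under 16% in the lowest.

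Within the intergenic peaks, 365 had a summit within 100 bp in the full relaxed lists of both replicates. Over these 365 the Spearman correlation of replicate 1 with replicate 2 signal was 0.52, against 0.78 over 1320 other autosomal peaks. By class it was 0.66 inside genes, 0.77 in promoters of 1 gene and 0.86 in shared promoters. These correlations describe peaks that were chosen by pooled signal, which holds reads of both replicates, and they share the 2 libraries. In replicate 1, 18 intergenic peaks had no summit within 100 bp even in the full list, and the highest pooled signal among them was 195. In replicate 2 there were 26, the highest of which was the peak at mir-52, at 278. Its nearest replicate 2 summit lay 122 bp away.

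**Figure D2:**
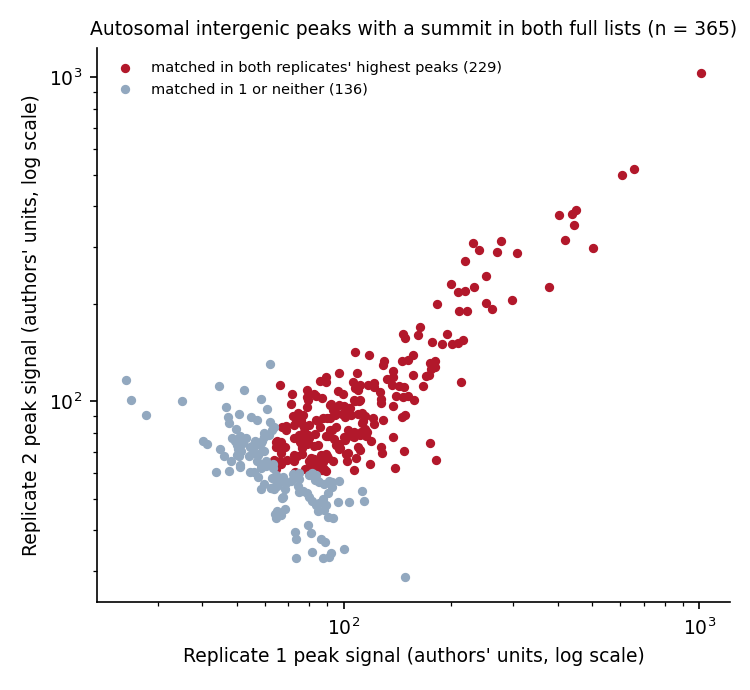
Replicate 1 signal (x axis) against replicate 2 signal (y axis), both in the authors' units on log scales, of the 365 autosomal intergenic IDR peaks with a summit within 100 bp in both full lists. The 229 peaks matched among both replicates' highest peaks fill the upper right, up to 1012 and 1032, and the other 136 lie toward the lower left. Signal scales of separate lists need not match.

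Each of the 12 intergenic peaks of highest signal was matched in both replicates. Rank 2, at a pooled signal of 1162 (655 in replicate 1, 523 in replicate 2), lay inside the long noncoding RNA gene linc-128, 4763 bp upstream of cmd-1, which encodes calmodulin. Rank 3 had 1097 (608 and 499 in replicates 1 and 2) and lay between a pair of diverging gene starts, 2771 bp from T04C4.3 and 3201 bp from fnip-2. Rank 4 had 844 (449 and 391) and lay 1988 bp upstream of hif-1, the hypoxia-inducible factor. All 3 thus had at least 1 flanking gene start on the side of the peak.

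Rank 5 had 820 (440 and 379 in replicates 1 and 2) and lay 388 bp beyond the end of F40E3.3 and 2917 bp upstream of mage-1. Rank 7 had 794 (445 and 351) and lay 2027 bp upstream of sup-26, which encodes an RNA-binding protein. Rank 10 had 615 (277 and 314) and lay inside the noncoding RNA gene H37A05.6, 2471 bp upstream of letm-1, a gene of the mitochondrial inner membrane, and 4657 bp upstream of lpin-1, which encodes a lipin of fat synthesis. At least 1 flanking gene start faced the gap in 11 of the 12. Rank 12, at 605 (307 and 287), was the exception: it stood in a gap of 646 bp between the ends of nlp-40, a neuropeptide-like gene, and rcor-1, a corepressor gene, 180 bp and 467 bp away.

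The next question was where the intergenic peaks stood relative to the flanking genes. In 144 of 408 (35.3%, 30.8 to 40.05) both flanking genes pointed away from the gap (divergent), against 29.1% of the relaxed intergenic summits and 28.8% of eligible bases. In 231 (56.6%) the genes ran the same way (tandem), against 55.6% and 53.5%. In 33 (8.09%, 5.82 to 11.1) both gene ends faced the gap (convergent), against 15.2% and 17.6%. The nearest edge of a protein-coding gene was a start for 249 intergenic peaks (61.0%, 56.2 to 65.6) and an end for 159, against a start for 48.7% of relaxed summits and for 48.24% of eligible bases. The strongest peaks showed the same picture as the rest: a start was nearest for 60 of the 100 of highest signal and for 61.4% of the other 308.

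The distance to the nearest protein-coding start had a median of 2454.5 bp (quartiles 1514 and 3821, range 856 to 13388), against 2617 bp for relaxed summits and 2715 bp for eligible bases. The promoter window bounds this distance from below for all 3. Between 1 and 2 kb lay 38.2% of the intergenic peaks, against 32.2% and 31.5%. At 10 kb or more lay 5 peaks (1.23%), against 3.02% and 4.16%. In 323 (79.2%) the summit lay upstream of the gene with the nearest start, against 67.5% of relaxed summits. The gaps that held them had a median length of 7007 bp, against 6969.5 bp for relaxed summits and 7297 bp over eligible bases, so gap length differed little.

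**Figure D3:**
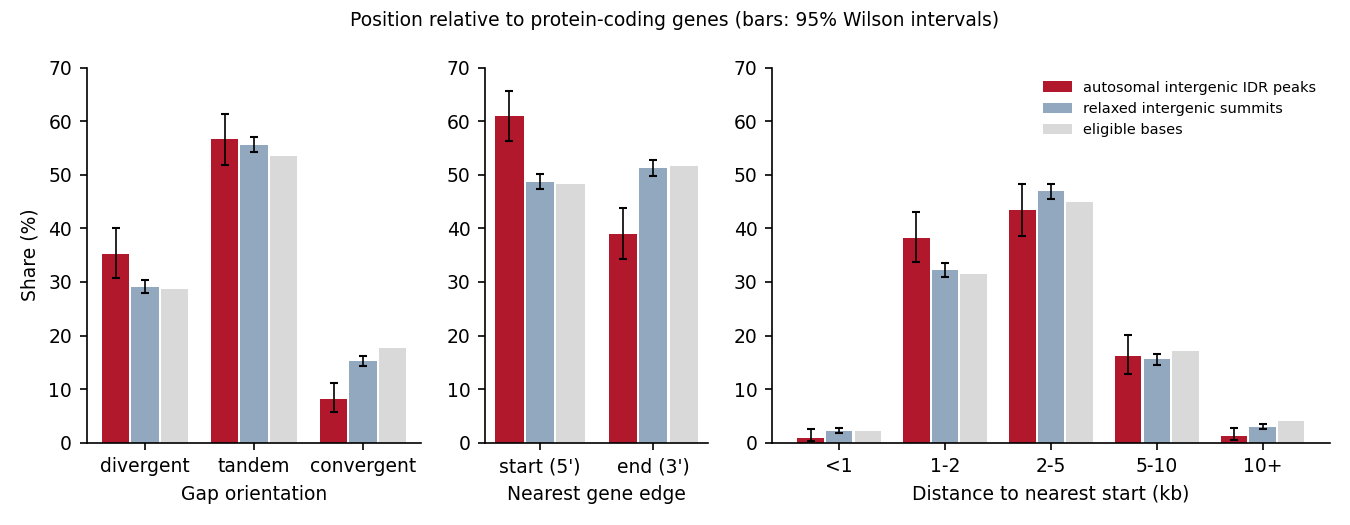
Shares (y axes, %) of the 408 autosomal intergenic IDR peaks, of 4837 relaxed intergenic summits and of eligible bases by orientation of the gap, by the kind of the nearest protein-coding gene edge and by distance to the nearest gene start in kb, with 95% Wilson intervals on the counts. The IDR peaks stand above both references for divergent gaps and nearest starts, and below both for convergent gaps.

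The peaks beside the limits of the rule are given as a description. Just inside by distance stood a peak 1007 bp upstream of unc-11 (signal 119.3, replicate 1 only) and 1 at 1009 bp upstream of mml-1 (130, replicate 2 only). Just outside stood peaks 997 bp upstream of E02A10.4 (127, replicate 1 only) and 995 bp upstream of chd-7 (249.8, both). The lowest signals on the list were 116.94 and 116.89. The lower of them lay 4505 bp upstream of the myosin gene myo-3 and 2578 bp upstream of ttr-22. The next intergenic relaxed summits below the list had 116.83 and 116.79. The whole peak, not only its summit, was clear of promoter windows and genes in 343 members (84.1%).

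The 408 intergenic peaks fell in 317 gaps. Single peaks filled 258 of these gaps, 59 gaps held at least 2 peaks (150 peaks in all) and 22 held at least 3. The gap upstream of nhr-6, which encodes the nuclear hormone receptor of the NR4A family, held 7 in 16953 bp, more than any other. From far to near, these summits lay 9622, 8619, 8418, 6310, 4860, 3676 and 1917 bp upstream of the nhr-6 start. Their pooled signals in that order were 207, 727, 234, 367, 164, 802 and 295. The replicate 1 signals were 122, 420, 78.7, 183, 102, 502 and 148. The replicate 2 signals were 84.9, 316, 316, 199.6, 65.3, 297 and 70.4, where the repeated value belongs to 1 replicate 2 peak. The summits at 8619 and 3676 bp thus had the highest signals of the gap in all 3 lists. All but the summit at 8418 bp were matched in both replicates. The called intervals of the summits at 8619 and 8418 bp overlapped, so the 7 need not be separate sites.

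**Figure D4:**
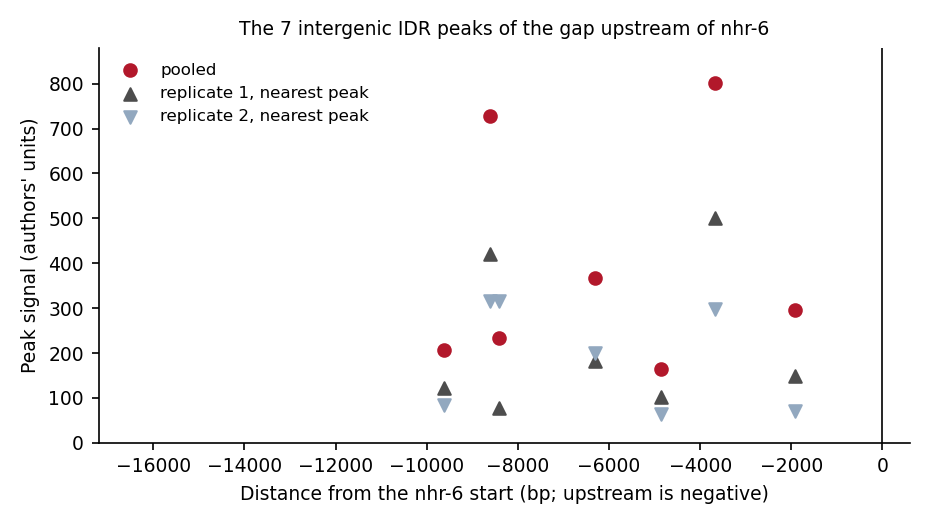
Signal (y axis, authors' units) of the 7 intergenic IDR peaks of the nhr-6 gap against distance from the nhr-6 start (x axis, bp, upstream negative), pooled and at the nearest peak of each replicate. The summits 8619 and 3676 bp upstream reach 727 and 802 in the pooled list and the other 5 stay at or under 367.

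A further 6 gaps held 4 peaks each, so the 3 described here are tied with 3 others. In the lpin-1 to letm-1 gap 4 peaks lay in 7127 bp, with signals of 128 to 615, and 3 of them were matched in both replicates. In the gap between F54F12.1 and Y39E4B.6 4 peaks lay in 15313 bp, with signals of 131 to 429, and 2 were matched in both. The same number lay upstream of ceh-23, a homeobox gene expressed in neurons, with signals of 279, 217, 209 and 175, of which the second was matched in replicate 2 only. In the other 3 gaps, next to C34B4.3, R06C1.4 and nhr-76, 3, 2 and 1 of the 4 peaks were matched in both replicates. An IDR peak of any class lay within 1000 bp for 57 intergenic peaks (13.97%), against 11.6% of the other autosomal peaks. Some intergenic peaks therefore belong to groups, and peaks of 1 gap share their flanking genes and are not separate instances of them. Some neighbours were overlapping or adjoining intervals, such as ranks 7 and 31 upstream of sup-26, whose summits lay 199 bp apart. With chromatin sheared to 200 to 800 bp, whether such pairs are separate sites was not tested. The 3 summits farthest from any protein-coding gene body stood 13388 bp from irld-18 (signal 189, both replicates), 10906 bp from cdh-7 (121, replicate 2 only) and 10699 bp from srab-24 (155, replicate 2 only).

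Noncoding genes were the next annotation. Within 300 bp of the summit, 26 intergenic peaks (6.37%, 4.39 to 9.17) had a short noncoding gene, that is a tRNA, snoRNA, snRNA, miRNA or rRNA gene, against 7.19% of the other autosomal IDR peaks, 1.92% of relaxed intergenic summits, 0.930% of eligible bases and 7.90% of all IDR peaks. The share was thus close to that of IDR peaks in general and above that of the weaker intergenic summits. Any noncoding gene other than piRNA genes and pseudogenes lay within 300 bp of 81 (19.9%, 16.3 to 24.0), against 18.02%, 11.3% and 7.0% of those references, and 20.1% of all IDR peaks. In 34 (8.33%) the summit lay inside such a gene. Peaks near a noncoding gene were matched in both replicates in 58.0% of 81 cases, against 55.7% of the other 327.

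By class, snoRNA genes were the most frequent of the short genes, and tRNA genes came next. A snoRNA gene, which guides chemical marks on ribosomal and spliceosomal RNA, lay near 14 intergenic peaks (3.43%), against 3.42% of other autosomal IDR peaks, 0.496% of relaxed summits and 0.229% of eligible bases. The strongest was rank 62 at W03C9.9, with 253 pooled, 143 in replicate 1 and 111 in replicate 2. Of these 14, 7 were matched in both replicates. A tRNA gene lay near 7 (1.72%), against 2.03%, 0.910% and 0.257%. These 7 had signals of 121 to 217, and the 3 strongest, at genes for tRNA-Phe (Y39B6A.t9), tRNA-Ala (Y7A9D.t2) and tRNA-Asp (F41A4.t1), were matched in both.

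A total of 3 intergenic peaks lay near a gene annotated as snRNA (0.735%, against 1.38% of other autosomal IDR peaks, 0.227% of relaxed summits and 0.134% of eligible bases). Ranks 8 and 18 flanked sls-2.2, with pooled signals of 783 (403 and 377 in replicates 1 and 2) and 506 (261 and 193). They stood 941 bp and 739 bp beyond the end of ins-13, an insulin-like peptide gene. Their called intervals adjoined, with summits 202 bp apart, so they need not be separate sites. A miRNA gene lay near 2 peaks, at mir-52 (278, with 146 in replicate 1) and mir-1821 (168), which is 0.490% of the intergenic peaks, against 0.436% of other autosomal IDR peaks, 0.351% of relaxed summits and 0.234% of eligible bases. No rRNA gene lay near any, which allows a share of up to 0.735% by counting alone.

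Longer noncoding genes and pseudogenes came next. A lincRNA gene lay near 11 intergenic peaks (2.70%, 1.51 to 4.76), against 0.436% of other autosomal IDR peaks, 1.16% of relaxed summits and 1.08% of eligible bases. Of the 11, 3 lay in linc-91, upstream of chd-7, with signals of 369, 353 and 183. For lincRNA genes and the classes below, only relaxed summits and eligible bases share the position rule. The other autosomal IDR peaks lie by rule in protein-coding genes or promoter windows, so their shares describe different sequence. The annotation's broad ncRNA class lay near 56 (13.7%), against 13.9%, 9.12% and 5.28%. An antisense RNA gene lay near 2 (0.490%), against 0.581%, 0.0207% and 0.0863%. Both were at C02F4.12 (148 and 140), in the gap next to tax-6, a calcineurin gene. Pseudogenes went the other way: 14 intergenic peaks (3.43%, 2.05 to 5.68) lay within 300 bp of one, against 15.7% of relaxed summits and 15.5% of eligible bases, and 0.509% of other autosomal IDR peaks. The strongest of these were ranks 14 (548, near F07H5.5), 15 (530, near R12C12.8) and 22 (439, near K08F11.6). A piRNA gene lay near 11 (2.70%), against 6.12% of relaxed summits and 9.14% of eligible bases, and 1.38% of other autosomal IDR peaks.

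**Figure D5:**
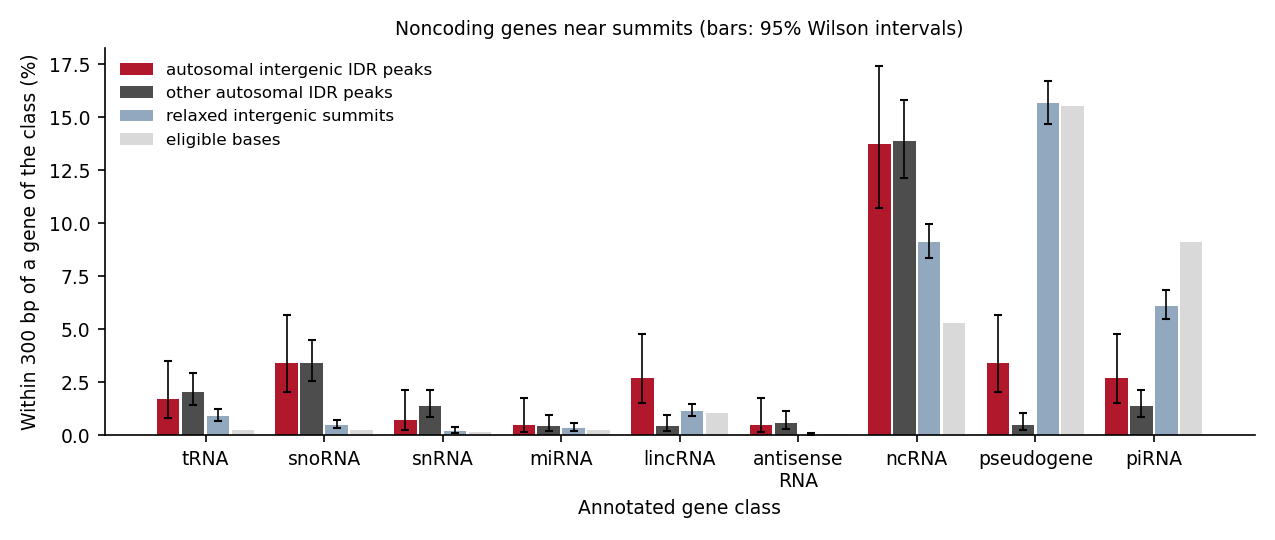
Share (y axis, %) of autosomal intergenic IDR peaks, other autosomal IDR peaks, relaxed intergenic summits and eligible bases within 300 bp of an annotated gene of each noncoding class (x axis), with 95% Wilson intervals on the counts. The intergenic IDR peaks exceed the relaxed summits for snoRNA and lincRNA genes and stand below them for pseudogenes and piRNA genes.

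The sequence of the windows was compared next, in 200 bases around each summit. GC content averaged 41.2% in the intergenic peaks, 41.5% in the other autosomal IDR peaks, 37.9% in relaxed summits and 34.5% in 90241 windows of the same length tiled over eligible bases. Soft-masked repeats took 20.7% of the bases, against 27.3% in other IDR peaks and 29.1% in relaxed summits. More than 50% of the window was masked in 27 intergenic peaks (6.62%), against 14.1% and 15.9%. Base composition moves with the motif shares, so for relaxed summits a share weighted to the GC classes of the intergenic peaks is given too.

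GAGAGA, a repeat that GA-binding factors hold in flies, was in the windows of 163 intergenic peaks (39.95%, 35.3 to 44.8), against 30.1% of other autosomal IDR peaks, 17.7% of relaxed summits (20.5% GC-weighted) and 10.6% of tiled windows. It was in 51 of the 100 intergenic peaks of highest signal. Peaks with it had a median signal of 166, against 150.4 without it, and 63.8% of them were matched in both replicates, against 51.02%. CTGCGTC was in 63 windows (15.4%, 12.3 to 19.3), against 11.6%, 3.97% (5.57%) and 1.71%. Of these 63, 28 were among the 100 of highest signal and 49 also held GAGAGA. Their median signal was 193, against 151 without the motif, and 74.6% were matched in both replicates, against 52.8%. Both motifs were thus more frequent in the stronger intergenic peaks.

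CACGTG, the E-box that basic helix-loop-helix factors bind, was in 43 windows (10.5%, 7.92 to 13.9), against 7.78% of other IDR peaks, 4.67% of relaxed summits (4.90%) and 2.78% of tiles. The paired core GTCACG was in 33 (8.09%, 5.82 to 11.1), against 8.28%, 4.03% (4.53%) and 2.84%. The longer GTCACGC was in 4 (0.980%), against 1.962%, 0.724% (0.872%) and 0.571%, and the pair of facing TAAT core sites that paired-class homeodomains bind was in 7 (1.72%), against 2.11% and 1.78%. GTCACG and CACGTG were in the same window in 12 intergenic peaks, in 9 of them as GTCACGTG. A GTCACG match lay within 50 bp of the summit in 42.4% of the 33, against 77.2% of the 114 other autosomal IDR peaks that held one. Among the 195 relaxed summits with a match the share was 54.4%. In the intergenic peaks the match was thus less often close to the summit than in the other autosomal IDR peaks. With 33 peaks behind the share and no interval computed, a difference from the relaxed summits cannot be told. The median signal was 159.6 with GTCACG and 155 without it.

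CGCGC was in 74 windows (18.1%, 14.7 to 22.2), against 34.8% of other autosomal IDR peaks, 9.39% of relaxed summits (13.8%) and 7.15% of tiles. In percentage points this was the largest shortfall against the other IDR peaks among the 25 motifs searched. TGATAA, one form of the site of GATA factors, was in 99 windows (24.3%, 20.4 to 28.7), against 15.8%, 18.2% (15.2%) and 17.03%. It was in 14 of the 100 intergenic peaks of highest signal and in 27.6% of the rest. Peaks with TGATAA had a median signal of 151, against 159.7 without it, and 48.5% were matched in both replicates, against 58.6%. TGATAA was thus more frequent in the weaker intergenic peaks. The AGATAA form was in 57 (13.97%), against 9.01%, 12.5% (11.03%) and 11.9%. The homeodomain site TAATTA was in 33 (8.09%), against 8.07%, 8.39% (7.01%) and 9.69%, which lie within its interval of 5.82 to 11.1. A match describes the letters of a window and does not show a bound site.

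The flanking protein-coding genes numbered 617, which is 3.58% of 17242 autosomal protein-coding genes. Of these 617, 79 (12.8%, 10.4 to 15.7) had an IDR peak in their own promoter window, against 7.35% of all autosomal genes. At least 1 flanking gene had such a promoter peak for 117 intergenic peaks (28.7%), and both did for 6. Flanking genes thus had a promoter peak more often than autosomal genes in general, though for most intergenic peaks neither flanking gene had one. No reference share for pairs of flanking genes was computed. Of 2431 autosomal genes on 22 lists of pathways and families, 81 (3.33%) flanked a member, close to the 3.58% of all genes. The 1198 chemoreceptor genes among them, of which 9 flanked a member (0.751%), weigh heavily in this pooled share. Single lists ranged from 0% to 18.6%. A gene with long gaps beside it has more bases in which a peak can fall, so peaks per Mb of eligible bases next to the list's genes are given beside the counts, and the value over all eligible bases was 21.05 per Mb.

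Among genes of hormonal and neural signalling, 8 of 43 insulin signalling genes flanked an intergenic peak (18.6%, 9.74 to 32.6; 60.2 peaks per Mb). Besides ins-13 they included akt-1, the kinase below the insulin receptor, with a peak of 266 lying 2257 bp upstream. They also included ins-10, with a peak of 182 lying 5437 bp upstream. That peak also lay inside the snRNA gene T08G5.11 and 1028 bp upstream of T08G5.3. The peaks beside ins-13, daf-16, ins-37, ins-2 and ins-3 lay beyond the gene's end, and ins-2 and ins-3 flanked the same peak. Neuronal genes of secretion and transport gave 6 of 35 (17.1%; 66.8 per Mb). These included egl-3, a convertase that cuts peptide precursors (289, at 4647 bp upstream), unc-64, the syntaxin (195, at 1316 bp), and unc-104, a kinesin (164, at 1866 bp), all matched in both replicates. Of 70 neuropeptide genes 8 did (11.4%; 38.9 per Mb), with the highest signals beside nlp-40 (605), flp-6 (304) and flp-16 (225). The peak of 304 lay 6269 bp upstream of flp-6 and nearer to F07D3.3, 3001 bp upstream of its start. On these 3 lists, and on several described next, the peaks per Mb were above the 21.05 of all eligible bases, with few peaks behind most of the values.

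Transcription factor genes came next. Of 246 nuclear receptor genes 21 flanked a member (8.54%, 5.65 to 12.7), with 29 peaks at 41.1 per Mb, led by nhr-6 (802), nhr-88 (608) and nhr-20 (302). Of 45 ceh homeobox genes 3 did, with 9 peaks at 51.6 per Mb: ceh-23 (279), ceh-79 (203) and ceh-43 (159). Of 29 basic helix-loop-helix genes 3 did (30.5 per Mb): hif-1 (844), hlh-10 (193) and mml-1 (130). Of 8 paired box genes 1 did, npax-1, with 2 peaks (62.1 per Mb), the higher of which was rank 65. None of 6 Hox genes flanked a member, and neither did any of 19 epidermal regulators, where counting alone allows a share of up to 15.8% for the epidermal list and no useful limit for the Hox list.

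Signalling lists were small. The 16 Notch pathway genes gave 2 (54.01 per Mb), sup-17, a protease that cuts the receptor (522, at 6036 bp upstream), and sel-1 (151). The peak beside sup-17 lay nearer to the start of mfb-1, 1513 bp away. The 26 Wnt genes gave 2 (27.3 per Mb), sfrp-1 (171), whose end lay 7842 bp away, and kin-19 (164). The 18 TGF-beta genes gave 2 (24.2 per Mb), the receptors daf-4 (137.3) and sma-6 (121), both matched in replicate 2 only. The 13 heterochronic genes, at 19.5 per Mb, gave lin-41 (155), a regulator of the larva-to-adult switch, with the peak 1454 bp upstream. Apart from sup-17, the highest signals beside these genes lay between 121 and 171, around the median of 155 of all members.

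Structural and housekeeping lists spanned densities below and above the 21.05 per Mb of all eligible bases. Of 58 genes on the chaperone list 2 flanked a member (3.45%; 53.9 per Mb from 4 peaks). These were cdc-48.1 (281), which had 3 of the peaks, and the heat shock factor gene hsf-1 (122). Of 25 muscle genes 3 did (45.7 per Mb), pat-4 (151), cpn-3 (151) and myo-3 (117). Of 129 collagen genes 5 did (3.88%; 22.9 per Mb), with signals of at most 135 and none matched in both replicates. Of 77 histone genes 1 did (17.6 per Mb), hil-1 (178), and of 34 cell cycle genes 1 did (18.5 per Mb), air-2 (129.2), the Aurora B kinase. None of 76 ribosomal protein genes and none of 28 germline RNA regulators did, where counting allows up to 3.95% and 10.7%. The large chemoreceptor and C-type lectin families were rarely beside a member: 9 of 1198 chemoreceptor genes (0.751%, 0.396 to 1.42; 5.21 peaks per Mb) and 3 of 237 C-type lectin genes (1.27%; 9.11 per Mb).

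Along the genome, 172 of the 408 intergenic peaks (42.2%, 37.5 to 47) lay in the central of 3 equal parts of their chromosome, against 46.0% of other autosomal IDR peaks, 32.0% of relaxed summits and 30.4% of eligible bases. Chromosome V held 130 members, IV 82, III 79, II 60 and I 57. Per Mb of eligible bases that was 28.3 on III, 25.16 on V, 20.2 on I, 16.7 on II and 16.3 on IV. The relaxed summits spread from 215 per Mb on IV to 282 on V. Chromosome III thus led by density and V by number.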

How the data were processed

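The authors deposited peak lists in build ce11, per the labels: 1 IDR list of 1784 autosomal and 355 X peaks, and relaxed lists of 30000 peaks for the pooled data and for each of 2 replicates. Signal values are as deposited by the authors and serve here to order peaks inside 1 list. The deposited −log10 q-value was read for description and not tested. Which aligner, caller, control and IDR threshold were used is not given in the sources used here. Labels differ on the antibody: the antibody field names pax-3, and the description names anti-GFP. Every IDR peak equals, in place and signal, 1 of the same number of highest pooled peaks, so some can be absent from a replicate.

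Genes came from Ensembl release 115, tRNA products and bases from the RefSeq copy of WBcel235. Positions are counted from 1. Scripts used Python 3.11.15, pandas 2.3.3, numpy 2.4.6, scipy 1.17.1 and matplotlib 3.10.9. Placement and flanking genes were checked against a direct recount at random positions of the genome, and the motif search on simulated sequences. Of the 25 motifs both strands were searched. No p-values were computed: with 1 group of 2 replicates, shares are given with 95% Wilson intervals, and a count of 0 allows 3 counts of the total. Both cover counting error only, and peaks and genes are not replicates. The lists give no read numbers, so depth is unknown.

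The members, the 22 gene lists and the motifs were chosen with earlier results of these data known. Named are the 12 members of highest signal, up to 3 members per noncoding class, the 3 farthest from a gene body, 3 gaps by number of members and then summed signal, up to 3 flanking genes per list, and peaks beside each threshold. The 4 gaps tied with these and linc-91 at signal 183 were named after their values were seen. Alternatives changed the replicates, the signal threshold, the promoter window, the use of the whole peak, the matching rule, the distance to noncoding genes and the motif window.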

Additional observations from a re-analysis of the deposited data

How the results depend on the processing

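Of 76 alternative values, 57 stayed within the interval of the reported value, or within 1.5 times for the number of members, and 19 did not. The shares in tandem gaps, nearest to a gene end and near short noncoding genes moved under none of those run. With the IDR list cut to its upper 50% by signal, 151 members were left, 92.72% of them matched in both replicates, with a median signal of 229.4 and 1.316% of list genes flanking one. A promoter window of 500 bp gave a median start distance of 1824 bp. A window of 2000 bp gave 266 members, a distance of 3253 bp and 2.057% of list genes. With whole peaks clear of promoters and genes the distance was 2719 bp. The 229 members matched in both replicates had a median signal of 192.6 and 2.098% of list genes. The share over all autosomal genes was not computed for these smaller sets. Their list shares therefore cannot be set against the 3.58% of the full set. The matched share was 41.67% at 50 bp, 61.03% at 200 bp and 89.46% with the full replicate lists. Any noncoding gene lay within 100 bp of 15.2% and within 1000 bp of 27.94%. GTCACG was in 3.431% of windows of 100 bp and 11.52% of windows of 400 bp. These moves follow from the narrower or wider rule. As many highest peaks of 1 replicate alone gave 389 to 399 members. Signal and matched share were not computed without a replicate, since signal scales differ between lists and matching needs both. No paired analysis was possible because there is 1 group. Read depth and the number of replicates limit what a single weak peak shows.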
